A study of Mus musculus with 24 samples.

Results

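The proteins that carry out repression by REV-ERB and activation by CLOCK:BMAL1 on chromatin were examined here through the mRNA levels of 8 genes, *Ncor1*, *Hdac3*, *Tbl1xr1*, *Ep300*, *Crebbp*, *Kdm5a*, *Wdr5* and *Nono*. The genes were chosen by symbol for their known roles and not for any measured value, although earlier results of these data were known. They make up 8 of the 54733 genes with a value in each of the 24 liver libraries. The livers came from male C57BL/6 mice, either wild-type (WT) or homozygous for a CRISPR-Cas9 deletion of both RREs of *Bmal1* (ΔRRE). An RRE is the DNA element that REV-ERB and ROR bind. Livers were taken at CT2, CT6, CT10, CT14, CT18 and CT22, where CT is circadian time in hours, and each genotype had 2 libraries of poly(A)-tailed RNA at each time. The mutant allele was carried throughout the body rather than in one cell type, and the study's methods name 1 mutant mouse line as the default for its experiments, which the labels do not restate. Those methods give an age range for livers collected for other assays and none for these libraries.

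In the hepatocyte clock, REV-ERBα and REV-ERBβ bind RREs and recruit a corepressor whose scaffold is NCOR1. HDAC3, the histone deacetylase of this corepressor, is switched on by contact with NCOR1, and TBL1XR1 is a WD-repeat subunit of the same complex. On E-boxes, CLOCK:BMAL1 works with the acetyltransferases p300, encoded by *Ep300*, and CBP, encoded by *Crebbp*. KDM5A, known as JARID1A, is a JmjC histone demethylase that enhances CLOCK:BMAL1 activity. WDR5, a core subunit of the MLL family of histone H3K4 methyltransferases, and NONO, an RNA- and DNA-binding protein, were both found as partners of PER proteins.

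The unit of all values was FPKM, the fragments of a gene scaled by transcript length and by the number of mapped fragments, which allows levels of different genes to be set side by side. All 8 genes passed the filter of a mean of at least 1 FPKM over the 24 libraries, as did 11244 of the 54733 genes. The summed FPKM of a library lay between 554170 and 624746. *Arntl*, the gene symbol of *Bmal1*, carries the deletion and was the check of the labels: its mean ran from 0.143 FPKM at CT10 to 12.9 FPKM at CT2 in WT and from 2.30 to 3.61 FPKM in ΔRRE. Markers of hepatocytes summed to medians of 43930 FPKM in WT and 41002 FPKM in ΔRRE. In the same order, the medians were 48.7 and 51.6 FPKM for stellate cells and 32.4 and 30.7 FPKM for Kupffer cells. They were 23.9 and 21.3 FPKM for endothelial cells, 4.53 and 4.63 FPKM for cholangiocytes and 1.25 and 1.15 FPKM for leukocytes. These were bulk livers, so fewer cells of a type and less RNA per cell cannot be told apart. The study's methods give n = 2 for the livers used in RNA-seq. The labels do not say whether the 2 libraries of a group came from separate mice, so p-values measure the spread between libraries.

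The levels of the 8 genes spanned more than a factor of 10. *Nono* was the highest, with 32.4 ± 2.36 FPKM (SD, n = 24), followed by *Ncor1* with 19.3 ± 3.24 FPKM and *Hdac3* with 14.4 ± 1.58 FPKM. *Wdr5* had a mean of 10.1 ± 0.878 FPKM, *Kdm5a* of 5.13 ± 1.199 FPKM and *Ep300* of 4.31 ± 0.684 FPKM. *Tbl1xr1*, at 3.06 ± 0.922 FPKM, and *Crebbp*, at 2.52 ± 0.355 FPKM, were the lowest. Among the 8, the corepressor's scaffold and deacetylase genes were thus well above *Tbl1xr1*, and *Ep300* and *Crebbp* were low compared with both. Outside the 8, *Tbl1x*, the paralog of *Tbl1xr1*, had a mean of 9.33 FPKM. Other acetyltransferase genes lay on either side, with 17.9 FPKM for *Kat2b* and 4.39 FPKM for *Kat5*.

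Neighbours in this order were not all separate. The range of *Nono* lay entirely above that of *Ncor1*, and the range of *Wdr5* entirely above that of *Kdm5a*. *Ncor1* exceeded *Hdac3* in 22 of 24 libraries, *Hdac3* exceeded *Wdr5* in 24 of 24, and *Ep300* exceeded *Tbl1xr1* in 22 of 24, although their ranges overlapped. *Kdm5a* exceeded *Ep300* in 14 of 24 libraries and *Tbl1xr1* exceeded *Crebbp* in 17 of 24, also with overlapping ranges. The order of *Kdm5a* and *Ep300* depended on the time of day. From CT2 to CT10 all *Kdm5a* values were above all *Ep300* values, with 4.87 against 4.30 FPKM as the nearest in WT. In ΔRRE the nearest were 5.16 and 4.60 FPKM. From CT14 to CT22 the ranges of these genes overlapped in both genotypes. The differences between neighbours were not tested.

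**Figure D1:**
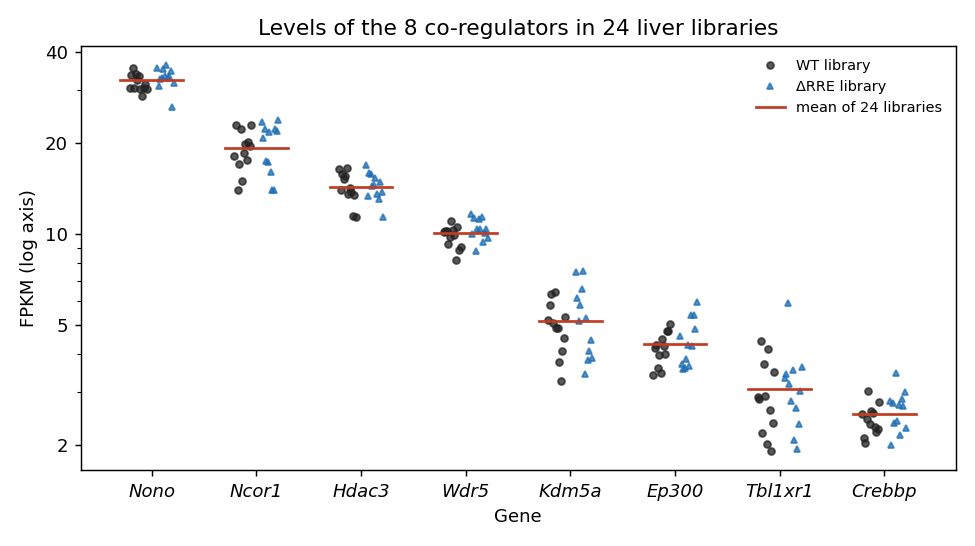
FPKM of each of the 8 genes (log axis) in the 12 WT libraries (circles) and the 12 ΔRRE libraries (triangles), with the mean of all 24 libraries as a line. The genes run from *Nono*, with a mean of 32.4 FPKM, down to *Crebbp*, with 2.52 FPKM, and the clouds of the genotypes overlap for every gene.

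The spread between the 2 libraries of a group set how small a change could be seen. It was largest for *Tbl1xr1*, with a replicate SD of 0.39 on the log2 scale, and its WT libraries at CT14 differed 2.07-fold. It was smallest for *Nono* and *Wdr5*, with SDs of 0.10 and 0.13, and lay between 0.14 and 0.24 for the other 5 genes, against a median of 0.25 over all genes tested.

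The first comparison asked whether the co-regulators themselves cycled over the day, when 1 wave with a period of 24 h was fitted to both genotypes together. *Kdm5a* and *Hdac3* were higher in the subjective day and *Ep300* was higher in the subjective night, and these 3 of 8 genes passed the test (limma, Benjamini-Hochberg adjusted p under 0.05). The same test called 30.6% of all 11244 genes, so the share among the co-regulators was close to the background. At an unadjusted p under 0.05 it called 4 of 8, against 42.1% of all genes.

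*Kdm5a*, the demethylase, had the largest amplitude of the 8 in the shared wave. In WT its 2 libraries had 5.17 and 5.82 FPKM at CT2, 6.31 and 5.06 at CT6, 6.42 and 4.87 at CT10, 4.87 and 3.77 at CT14, 3.26 and 4.08 at CT18, and 4.52 and 5.31 at CT22. In ΔRRE they had 7.48 and 6.12 FPKM at CT2, 5.16 and 5.82 at CT6, 6.55 and 7.54 at CT10, 3.43 and 5.28 at CT14, 3.82 and 4.10 at CT18, and 4.44 and 3.87 at CT22. Both genotypes were high from CT2 to CT10 and lowest on average at CT18, and the libraries of CT2 to CT10 overlapped those of CT14 to CT22 from 4.87 to 5.31 FPKM in WT and from 5.16 to 5.28 FPKM in ΔRRE. The mean of the 6 libraries from CT2 to CT10 was 5.61 ± 0.668 FPKM in WT and 6.45 ± 0.941 FPKM in ΔRRE, and that of the 6 from CT14 to CT22 was 4.30 ± 0.749 and 4.16 ± 0.642 FPKM (SD). The shared wave had an amplitude of 0.34 ± 0.07 (SE) on the log2 scale, measured from the daily mean to the peak, and peaked at CT 5.89 ± 0.755 h (limma adjusted p = 0.00187). It passed under each of 8 alternative settings and with each of the 24 libraries left out in turn.

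*Hdac3*, the deacetylase, changed less but with a smaller spread. In WT the libraries had 16.5 and 14.0 FPKM at CT2, 15.8 and 15.2 at CT6, 15.6 and 16.5 at CT10, 13.6 and 14.2 at CT14, 13.8 and 11.5 at CT18, and 13.5 and 11.4 at CT22. In ΔRRE they had 17.0 and 13.4 FPKM at CT2, 15.9 and 15.8 at CT6, 14.4 and 14.5 at CT10, 15.4 and 13.5 at CT14, 13.1 and 14.9 at CT18, and 13.7 and 11.3 at CT22. The lowest time point was CT22 in both genotypes, and 1 WT library at CT2 was below the higher WT library at CT14. The shared wave had an amplitude of 0.16 ± 0.04 (SE, log2) and a peak at CT 7.41 ± 0.985 h (limma adjusted p = 0.0149). When the 6 times were fitted as separate levels in place of a wave, limma's adjusted p was 0.0646.

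*Ep300*, which encodes the coactivator p300, ran the other way. In WT the libraries had 3.42 and 4.202 FPKM at CT2, 4.30 and 3.59 at CT6, 3.97 and 3.45 at CT10, 4.49 and 4.26 at CT14, 4.02 and 4.78 at CT18, and 4.78 and 5.02 at CT22. In ΔRRE they had 4.60 and 3.70 FPKM at CT2, 3.58 and 3.59 at CT6, 3.85 and 4.27 at CT10, 3.65 and 5.40 at CT14, 4.27 and 5.41 at CT18, and 4.83 and 5.95 at CT22. Both genotypes were highest at CT22, and the ΔRRE libraries at CT14 were far apart, 1 within the range of CT2 to CT10 and 1 above it. The shared wave had an amplitude of 0.20 ± 0.05 (SE, log2) and a peak at CT 19.4 ± 1.03 h (limma adjusted p = 0.0196). When the 6 times were fitted as separate levels, limma's adjusted p was 0.0693.

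**Figure D2:**
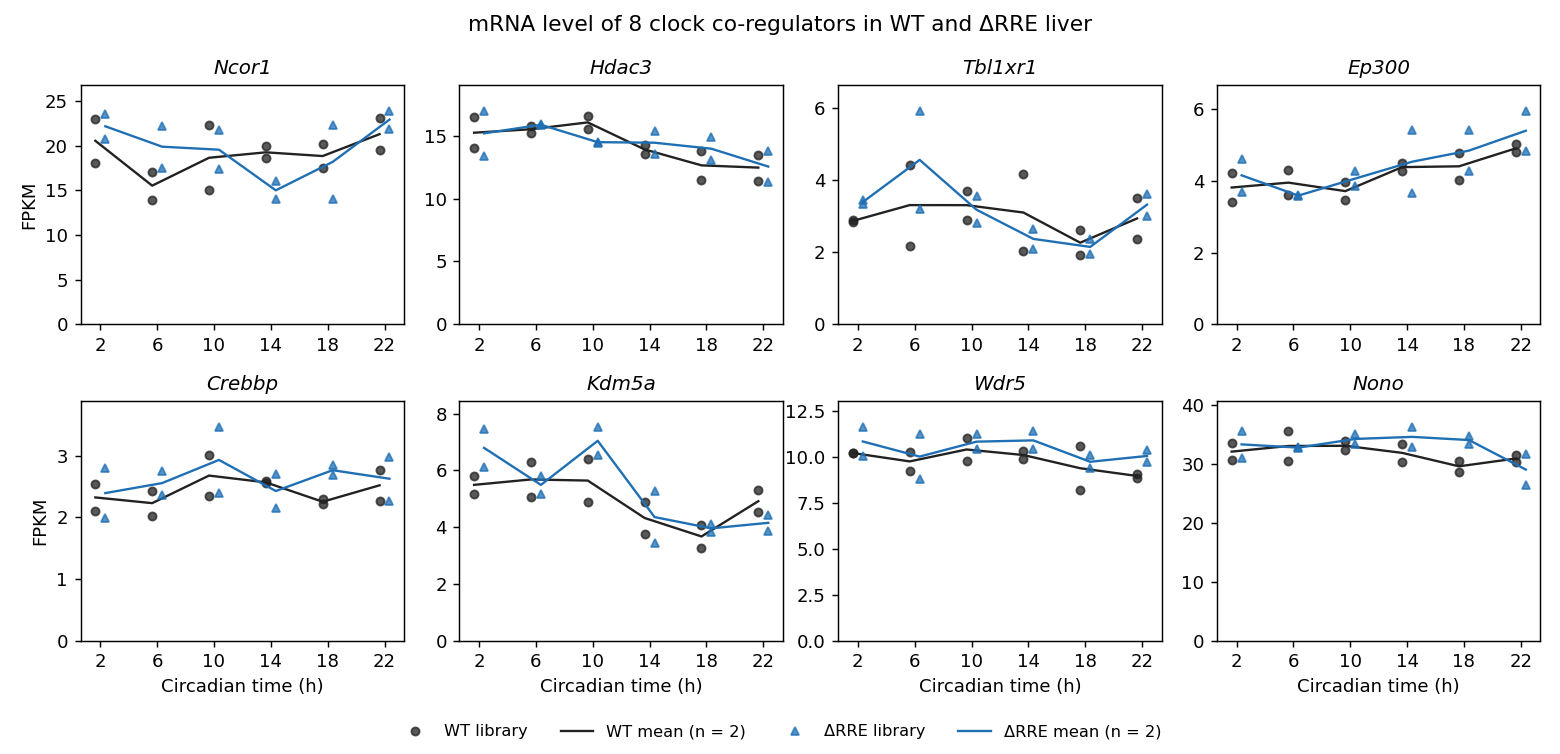
FPKM of each of the 8 genes against circadian time in hours, with each WT library as a circle, each ΔRRE library as a triangle, and lines through the means of the 2 libraries of a group. *Kdm5a* is high from CT2 to CT10 and lowest at CT18 in both genotypes, *Hdac3* is lowest at CT22 and *Ep300* is highest at CT22. In the wave fitted to both genotypes together, *Wdr5*, *Nono* and *Crebbp* have amplitudes of at most 0.07 on the log2 scale.

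The remaining subunits of the corepressor did not pass. *Tbl1xr1* had a wave of 0.30 ± 0.10 (SE, log2) with its peak at CT 5.31 h (limma adjusted p = 0.0613), and *Ncor1* a wave of 0.16 ± 0.07 with its peak at CT 23.9 h (limma adjusted p = 0.169). *Tbl1xr1* ranged from 1.91 FPKM, in WT at CT18, to 5.92 FPKM, in ΔRRE at CT6, where the other library had 3.19 FPKM. It passed when either of 2 WT libraries was left out, replicate 2 of CT6 or replicate 2 of CT14, with a limma adjusted p down to 0.0169. *Ncor1* had its highest mean at CT22 in both genotypes, 21.3 FPKM in WT and 22.9 FPKM in ΔRRE. The fitted peak of *Hdac3* lay in the subjective day, as did that of *Tbl1xr1*, whose wave did not pass. No phase was assigned to *Ncor1*, whose shared peak had an SE of 1.62 h. Its fitted peaks in the single genotypes were CT 20.4 h in WT and 1.66 h in ΔRRE. The differences in peak time between genes were not tested.

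*Crebbp*, *Wdr5* and *Nono* had amplitudes of 0.06, 0.06 and 0.07 on the log2 scale, and their limma adjusted p-values were 0.714, 0.426 and 0.240. *Crebbp*, whose protein is closely related to p300, ranged from 2.03 to 3.01 FPKM in WT and from 1.99 to 3.47 FPKM in ΔRRE. *Wdr5* ranged from 8.20 to 11.05 FPKM and from 8.78 to 11.6 FPKM, and *Nono* from 28.6 to 35.5 FPKM and from 26.3 to 36.3 FPKM. The median amplitude of the 8 genes was 0.16, against 0.17 over all genes tested.

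**Figure D3:**
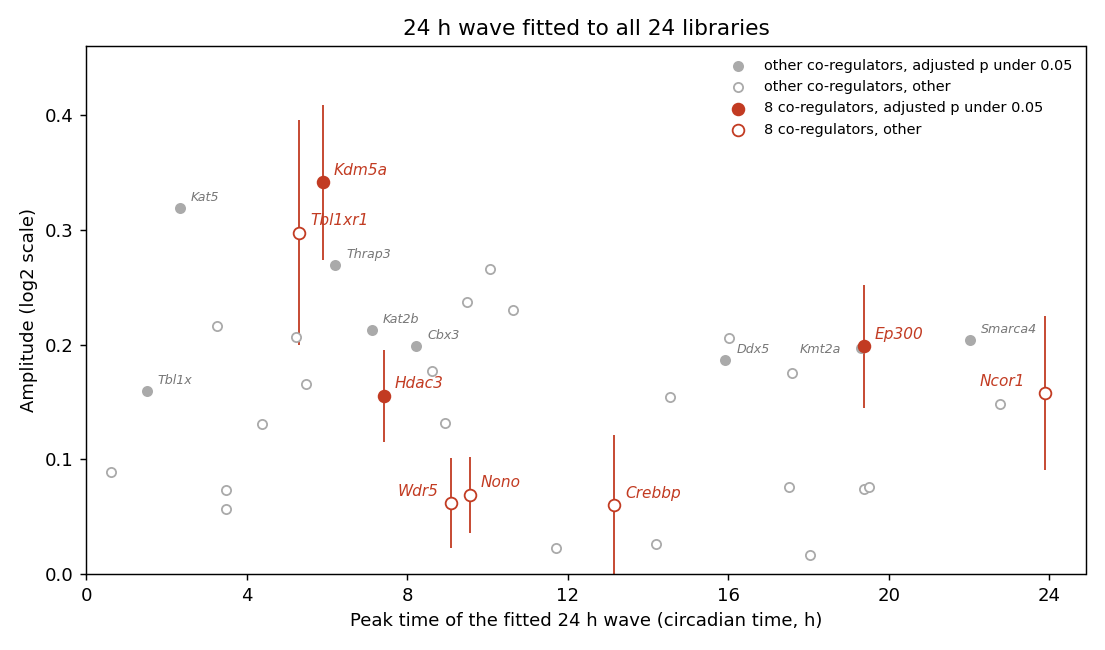
Amplitude (log2 scale) of the 24 h wave fitted to all 24 libraries against its peak time in circadian hours, for the 8 genes (red, bars show 1 SE) and the other co-regulators (grey, 1 of 31 not shown), filled where the adjusted p was under 0.05. *Kdm5a* (0.34), *Hdac3* (0.16) and *Ep300* (0.20) are the filled red points, the first 2 peaking in the day and *Ep300* at 19.4 h.

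Marker genes of the cell types of the liver were read in the same test, since some of them cycle. It called 3 of 5 hepatocyte markers, with peaks at CT 11.4 h, 0.516 h and 11.97 h, 2 of 4 endothelial markers at 4.86 h and 1.43 h, 2 of 3 stellate markers at 23.1 h and 22.9 h, 2 of 2 cholangiocyte markers at 22.5 h and 22.6 h, and 0 of 4 Kupffer markers. Of 2 nuclear RNAs, *Neat1* passed with a peak at 2.94 h and *Malat1* did not (limma adjusted p = 0.961). The part of cell composition in the waves of *Kdm5a*, *Hdac3* and *Ep300* was not tested.

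Taken alone, 12 libraries of 1 genotype gave no call. In WT, 0 of 8 genes passed limma's adjusted test, which called 10.3% of all genes, and 2 of 8, *Hdac3* and *Kdm5a*, had an unadjusted p under 0.05, against 27.6%. In ΔRRE, 0 of 8 passed, against 4.57%, and 3 of 8, *Kdm5a*, *Ncor1* and *Tbl1xr1*, had an unadjusted p under 0.05, against 22.6%. The amplitudes of *Kdm5a* were 0.30 ± 0.09 (SE, log2) in WT and 0.39 ± 0.11 in ΔRRE, with peaks at CT 5.40 h and 6.27 h. Those of *Ep300* were 0.16 ± 0.08 and 0.24 ± 0.09, with peaks at 19.4 h in both genotypes, and those of *Hdac3* 0.19 ± 0.06 and 0.12 ± 0.07, with peaks at 7.39 h and 7.43 h. *Tbl1xr1* had 0.19 ± 0.15 in WT and 0.44 ± 0.12 in ΔRRE, the largest of the 8 in ΔRRE (limma adjusted p = 0.0916).

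The criteria of the study's methods were also applied, with the harmonic p in place of the BIO_CYCLE p. They required a p under 0.3, a ratio of the highest to the lowest time-point mean above 1.5, and no SD of a time point larger than 1.5 times the distance between these 2 means. In WT they passed 1 of 8 genes, *Kdm5a*, against 37.0% of all genes. In ΔRRE they passed 4 of 8, *Kdm5a*, *Ep300*, *Ncor1* and *Tbl1xr1*, against 35.4% of all genes.

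Several of these ratios lay close to the limit of 1.5. *Kdm5a* had a ratio of highest to lowest mean of 1.55 in WT and 1.78 in ΔRRE. *Ncor1* had 1.37 and 1.53, *Ep300* 1.32 and 1.504, and *Tbl1xr1* 1.46 and 2.12. In WT, *Tbl1xr1* also missed the limits on the p (0.468 in limma's test) and on the SD. Without the WT library of CT18 replicate 1, 0 genes passed in WT, and without that of CT6 or CT14 replicate 2, *Tbl1xr1* passed too. Without the ΔRRE library of CT22 replicate 2, 2 genes passed in ΔRRE. A difference between genotypes cannot be read from these counts and was tested directly.

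The second comparison asked whether loss of the RREs of *Bmal1* changed the daily wave of the co-regulators. No difference passed the test for any of the 8 genes (limma, 0 of 8 at an adjusted p under 0.05 and 0 of 8 at an unadjusted p under 0.05). The test called 0.00889% of all genes, a single gene, *Arntl*, whose call did not hold under every setting, and 2.84% at the unadjusted threshold. In an exact two-sided permutation test over all 23328 divisions of the libraries within time points, the smallest p among the 8 was 0.149, for *Ncor1*, and the largest was 0.991, for *Crebbp*. The exact p was 0.645 for *Kdm5a*, 0.556 for *Hdac3*, 0.766 for *Ep300* and 0.324 for *Tbl1xr1*. The distance between the fitted waves of the genotypes ran from 0.02 for *Crebbp* to 0.26 for *Ncor1* and 0.32 for *Tbl1xr1* (log2). Differences of these sizes were thus not resolved.

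*Ncor1* had the profile that differed most by this p. In WT the libraries had 14.0 and 17.1 FPKM at CT6, the lowest mean, and 18.6 and 19.9 FPKM at CT14. In ΔRRE they had 22.2 and 17.5 FPKM at CT6 and 16.0 and 14.0 FPKM at CT14, the lowest mean. The libraries of the genotypes thus did not overlap at these times, with ΔRRE above WT at CT6 and below it at CT14, and the fitted peaks were CT 20.4 ± 2.30 h in WT and 1.66 ± 1.36 h in ΔRRE (SE). Over the whole day the difference did not exceed the spread between libraries in either test.

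Over all 8 genes and 6 times, the 2 libraries of each genotype did not overlap in 13 of 48 cases. ΔRRE was higher in 9 of the 48, where all genes gave 19.3% of all cases, and lower in 4 of the 48, where all genes gave 11.9%, so both counts were close to the background. *Kdm5a* was higher in ΔRRE at CT2 and CT10 and lower at CT22. *Wdr5* was higher at CT14 and CT22, *Tbl1xr1* at CT2, and *Crebbp* and *Nono* at CT18. *Hdac3* was higher at CT6 and lower at CT10, and *Ep300* was lower at CT6. The separations of these genes at CT6 were near ties. The nearest libraries of ΔRRE and WT had 15.85 and 15.81 FPKM for *Hdac3* and 3.5926 and 3.5938 FPKM for *Ep300*. No gene was separate at more than 3 of the 6 times, and no single time point was tested.

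The third comparison asked whether the mean level over the day differed between genotypes. It did not pass for any gene (limma, 0 of 8 at an adjusted p under 0.05, against 0.0% of all genes, and 0 of 8 at an unadjusted p under 0.05, against 8.91%). The mean log2 difference, ΔRRE minus WT, was largest for *Crebbp*, at 0.10 with a 95% interval from -0.08 to 0.28. It was 0.08 for *Wdr5* (interval -0.03 to 0.20), 0.08 for *Tbl1xr1* (-0.21 to 0.37), 0.07 for *Kdm5a* (-0.11 to 0.26) and 0.07 for *Ep300* (-0.09 to 0.22). The values were 0.05 for *Nono* (-0.05 to 0.15), 0.04 for *Ncor1* (-0.16 to 0.23) and 0.01 for *Hdac3* (-0.10 to 0.13). The exact two-sided permutation p ran from 0.0864 for *Wdr5* to 0.795 for *Hdac3*, where the smallest p that these divisions allow is 4.29e-05.

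All 8 estimates were above 0, as were 65.5% of those of all genes, and the median was 0.07 over the 8 genes and 0.04 over all genes. After the libraries were rescaled by the median of ratios, 6 of 8 were above 0, against 48.8% of all genes, with *Ncor1* at -0.00485 and *Hdac3* at -0.0278, and the median over all genes was -0.00329. No interval lay entirely on one side of 0 on either scale. As deposited, the upper limits of the log2 difference were 0.13 for *Hdac3* and 0.15 for *Nono*, while that of *Tbl1xr1*, the gene with the largest spread, was 0.37.

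**Figure D4:**
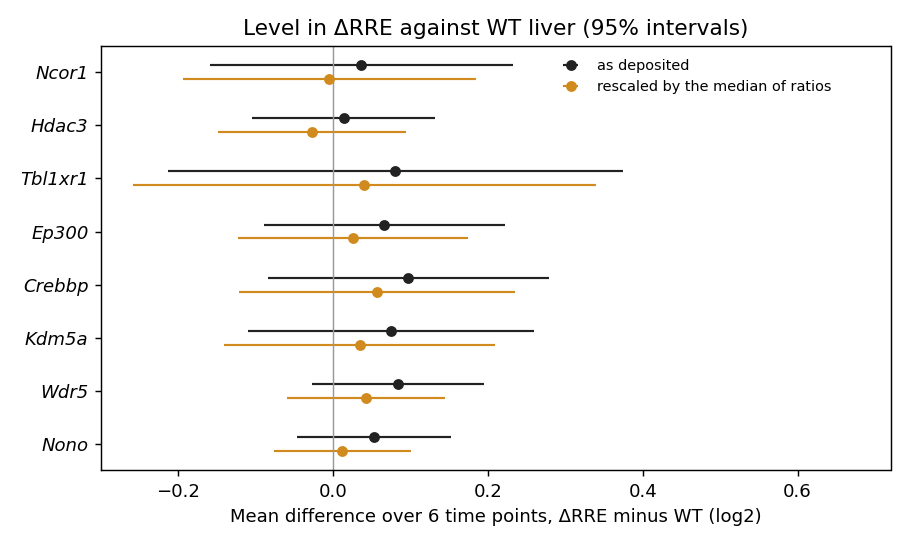
Mean difference over the 6 time points, ΔRRE minus WT on the log2 scale, for each of the 8 genes, with 95% intervals, from the FPKM as deposited (black) and after rescaling by the median of ratios (orange). Every interval contains 0, and rescaling moves each estimate down, *Hdac3* from 0.01 to -0.03.

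The 8 genes did not follow one pattern among themselves. Across the 24 libraries, which share the time of day and each library's scale, Pearson's r of the log2 values was highest between *Wdr5* and *Kdm5a*, at 0.42. It was lowest between *Hdac3* and *Ep300*, at -0.64, the deacetylase and the acetyltransferase with opposite peaks. *Ncor1* and *Hdac3*, scaffold and enzyme of one complex, had an r of -0.22, and *Ep300* and *Crebbp*, which encode closely related proteins, an r of -0.08.

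Outside the 8, the gene with the most similar profile over the 24 libraries was *Arpc1b* for *Nono* (r = 0.87), *Washc5* for *Kdm5a* (0.84), *Zhx3* for *Ncor1* (0.82) and *Cops5* for *Hdac3* (0.81). It was *Gga1* for *Wdr5* (0.78), *Zfp445* for *Ep300* (0.76) and *Pus1* for *Crebbp* (0.71). Each is the highest of the correlations with all other genes tested and is given as a description.

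Other co-regulators of the clock were read in the same fits from a list of 31 genes, all of which passed the filter. The shared wave passed for 9 of 31, against 30.6% of all genes. In WT alone a wave passed for 2 of 31, *Cbx3* and *Kat5*, against 10.3% of all genes. In ΔRRE alone it passed for 1 of 31, *Thrap3*, against 4.57%. *Tbl1x*, the paralog of *Tbl1xr1*, peaked at CT 1.51 h, early in the subjective day, with an amplitude of 0.16 ± 0.04 (SE, log2; limma adjusted p = 0.0201).

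Among the acetyltransferases, *Kat5*, which encodes TIP60, peaked at CT 2.32 h with an amplitude of 0.32, and *Kat2b*, which encodes PCAF, at 7.12 h with 0.21. *Thrap3*, which encodes a coactivator also known as TRAP150, peaked at 6.21 h with 0.27. *Kmt2a*, the H3K4 methyltransferase MLL1 that acts with WDR5, peaked at 19.3 h with 0.20, and *Smarca4*, the ATPase BRG1 of the SWI/SNF remodeller, at 22.0 h with 0.20. Of the repressive factors, *Cbx3*, which encodes HP1γ, peaked at 8.22 h with 0.20, and the RNA helicase gene *Ddx5* at 15.9 h with 0.19. No difference between genotypes passed for any of the 31 genes in rhythm or in level (limma, 0 of 31 in each, and at an unadjusted p under 0.05 1 in rhythm and 0 in level), and their median log2 difference in level was 0.03.

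By the annotation of GENCODE M21 for GRCm38, all 8 are protein-coding genes. *Ncor1* lies on chromosome 11 from 62316426 to 62458541, *Tbl1xr1* on chromosome 3 from 22076652 to 22216594 and *Hdac3* on chromosome 18 from 37935844 to 37955016. *Ep300* lies on chromosome 15 from 81585351 to 81652077, *Crebbp* on chromosome 16 from 4081328 to 4213997 and *Kdm5a* on chromosome 6 from 120364124 to 120444574. *Wdr5* lies on chromosome 2 from 27515157 to 27536535 and *Nono* on chromosome X from 101429318 to 101448591. *Kdm5a* shares 251 exon bases with *Ccdc77* on the opposite strand, which is 1.77% of its exon bases, and *Ncor1* shares 82 with *Pigl*. The library kit kept strand, but the strand setting used for the FPKM was not given in the sources used here. The part of such overlaps in the values was not tested. Transcripts of *Nono* also aligned to *Gm8806* (97.2% identity over 1419 bases), *Gm5171* (94.5% over 1418) and *Gm9662* (91.1% over 926). Those of *Ncor1* aligned to *Gm6743* (94.8% over 556). Each of these similar genes had a mean of at most 0.261 FPKM, and the part of reads shared with them was not tested.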

How the data were processed

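RNA-seq of poly(A)-tailed RNA was analysed in 24 liver libraries, grouped by the genotype and time in their labels. The authors deposited FPKM per gene and library, without pooling; the submitters' processing notes name Trimmomatic 0.39, HISAT2 2.1.0, StringTie 1.3.5 and build mm10. Read counts were not used here, and the counting error of a value is unknown. Transcript-length scaling depends on the transcript models, which can shift levels between genes. A table of the whole series was not used.

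From these, log2(FPKM + 0.1) was computed for genes whose mean reached 1 FPKM. The models used limma 3.58.1 (R 4.3.3, variance prior with an intensity trend), and p-values were Benjamini-Hochberg adjusted over all 11244 genes. Rhythms were tested as a 24 h cosine and sine, in each genotype, in all libraries with genotype as a term, and as the difference between genotypes. Level was tested with time point as a factor. BIO_CYCLE was not run. Fold changes on this scale are understated for low genes. The fits were run on simulated data, with checks on the amplitude and peak of the shared wave and on the level estimate. No check was set there on the test of the difference in rhythm.

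The 8 genes, the 31 other co-regulators and the markers were chosen with earlier results of these data known. Named genes were the 8, other co-regulators past an adjusted p of 0.05, *Arntl*, and for each of the 8 the gene with the highest Pearson's r; 2 genes that met this rule are not reported here. Alternatives were 1 or 0.01 FPKM added, no filter, a filter at 5 FPKM, rescaling by the median of ratios, a prior without trend, a replicate block, the time point as a factor, a shared spread, ratio limits of 2 and 1.2, and each library left out. Identifiers were matched to GENCODE M21 for 54528 of 54733 genes.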

Additional observations from a re-analysis of the deposited data

Results flagged for a closer look

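The rhythm of *Arntl*, the gene whose RREs were deleted, differed between WT and ΔRRE liver in the test of the difference itself (limma, adjusted p = 0.0463), and none of the 8 co-regulators met this criterion. The adjusted p of *Arntl* was under 0.05 in 3 of 7 alternatives, with a range from 1.2e-05 to 0.221, and with 5 of 24 libraries left out in turn, with a range from 0.00284 to 0.198; its unadjusted p was at most 1.97e-05 throughout.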

How the results depend on the processing

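The shared wave of *Kdm5a* passed under every alternative and every omission of a library, and those of *Hdac3* and *Ep300* under every alternative that tested them but the fit of time as a factor, which left 1 of 8. With 1 fit with a shared spread, 1 gene, *Kdm5a*, passed in ΔRRE. A mean of at least 5 FPKM left 5 of the 8 genes to test, without *Ep300*, *Tbl1xr1* and *Crebbp*. By the study's criteria, WT had 0 of the 8 genes after rescaling, 0 with a ratio limit of 2 and 4 with 1.2, and from 0 to 2 with 1 library left out. Of all 11244 genes, 1776 passed in WT with a limit of 2 and 6482 with 1.2. ΔRRE had 1 of the 8 genes with a limit of 2 and 5 with 1.2, against 1794 and 6148 of all 11244 genes. With 1 library left out, ΔRRE had from 2 to 4 of the 8. The level difference changed sign after rescaling for *Ncor1* (-0.00485) and *Hdac3* (-0.0278). With 1 library left out it ran from -0.00961 to 0.0350 for *Hdac3*, from -0.00225 to 0.0830 for *Ncor1* and from -0.000783 to 0.162 for *Tbl1xr1*.

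Over all genes, rhythms in WT numbered 361 with time as a factor and 519 without a filter, against 1157. In ΔRRE they numbered 197 without a filter and 957 with a shared spread, against 514, and differences in rhythm from 0 to 4. With the replicate number as a block, 3 of 8 genes passed the shared wave, 0 in WT alone and 0 in ΔRRE alone, and no other call on the 8 changed. Same-numbered libraries of the genotypes deviated together with r from -0.119 to 0.206 over the 6 times, so the numbers were not taken to pair the samples. With 2 libraries per group and no counts, differences in level smaller than the intervals given could not be seen. No interval was computed for the difference in rhythm.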
